A study of Homo sapiens with 21 samples.

Results

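HepG2/C3A spheroids of Day 7 were compared with spheroids of Day 3, which makes 6 of the 21 libraries of the series, 3 a day. The libraries of the comparison were chosen by the day given in their labels, and all genes of the table entered it. Of 19683 gene symbols, 12345 had enough counts over the series to be tested. HepG2/C3A is a line derived from a human hepatoma and grows as epithelial-like cells. Its genotype is labelled WT, and no drug or gene edit is given for either day. A flat culture was made to aggregate in ultra-low attachment plates, and the aggregates were then held in a ClinoReactor, a rotating vessel for long-term 3D culture. The medium was MEM with serum, non-essential amino acids and an antibiotic mix on both days. The labels of the groups differ in the age of the spheroids, 3 or 7 days. They give no harvest or sequencing run, so a difference in these cannot be told apart from age. RNA was measured by TempO-Seq, in which pairs of detector oligos are ligated on their target transcript and the products are sequenced. The rest of the series is the flat culture (2D monolayer) and spheroids of Days 10, 14, 21 and 28, again 3 libraries each. A single hepatoma-derived line stands in for hepatocytes here. The labels call the replicates biological and do not say whether they were separate cultures, so p-values measure only the spread between these samples, which may be technical.

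Hepatocytes secrete most plasma proteins, make lipoproteins and bile acids, release glucose and ketone bodies during fasting, and clear drugs. Lines derived from liver tumours keep part of this program and also divide, which calls on ribosome production, glycolysis and DNA replication. Aggregation into spheroids is widely used to raise liver-type functions in such lines. The comparison asks which of these programs still moved after the spheroids had formed, between Day 3 and Day 7.

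Promoters of 2 interferon-induced genes are shown first, since members of their list rose and many share a short motif. IFI6 is a mitochondrial protein and IFIT1 a sensor of viral RNA ends, both induced by interferon. Each line gives the 250 bases before a RefSeq start on GRCh38.p14, 5' to 3' on the gene's strand. Only promoters with a match were eligible, and where a gene had several of these the first was taken. IFI6 covers chr1:27672193-27672442 on the minus strand and IFIT1 chr10:89392373-89392622 on the plus strand. Capitals mark matches, on either strand, to GAAA, any pair of bases and GAAA again, the core of the interferon-stimulated response element.
IFI6: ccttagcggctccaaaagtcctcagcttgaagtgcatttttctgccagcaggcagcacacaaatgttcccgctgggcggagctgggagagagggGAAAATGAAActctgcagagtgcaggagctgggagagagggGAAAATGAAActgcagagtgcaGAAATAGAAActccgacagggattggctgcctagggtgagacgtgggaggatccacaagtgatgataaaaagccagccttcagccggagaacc
IFIT1: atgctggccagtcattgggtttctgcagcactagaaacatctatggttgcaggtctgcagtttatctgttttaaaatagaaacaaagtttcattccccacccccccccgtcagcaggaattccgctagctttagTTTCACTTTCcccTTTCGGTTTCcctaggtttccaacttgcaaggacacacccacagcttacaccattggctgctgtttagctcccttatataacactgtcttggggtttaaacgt
The 3 matches in IFI6 began 156, 115 and 93 bases before the start, and the 2 in IFIT1 began 116 and 103 bases before it, without overlap. Genes were counted by symbol, with a match in any promoter listed for them. The motif was found for 3.71% of the 27305 genes of RefSeq's table and 3.24% of the 9932 among them that were tested. It was found for 16 of the 24 genes of the interferon-induced list with a promoter in that table (66.7%), tested or not. These matches describe letters in the sequence and do not show binding.

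Levels are given as CPM, a gene's share of its library's counts with library sizes scaled by TMM, and changes as log2 fold change ± SE, positive where Day 7 was higher. A level depends on its probe, so levels compare libraries and not genes. The Day 3 libraries held 38460731, 27696312 and 27064507 counts and the Day 7 libraries 36579410, 36882620 and 40685329. Between 12994 and 13155 genes were detected at Day 3 and between 13261 and 13341 at Day 7, and the part of depth in this was not tested. The 10 most abundant genes took 10.48% to 10.72% of the counts at Day 3 and 13.08% to 14.25% at Day 7. Over 7132 genes of at least 10 CPM, libraries of the same day differed by a root mean square of 0.123 to 0.17 on the log2 scale, and libraries of different days by 0.259 to 0.323. The first principal component of the 6 libraries held 40.82% of the variance and separated the days. The hepatocyte genes ALB, APOA1, APOB, TTR, SERPINA1, HNF4A, FGB and AHSG were present in all 6 libraries, with the lowest value at 17.5 CPM for HNF4A.

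By edgeR's quasi-likelihood test with Benjamini-Hochberg adjustment, 2393 genes (19.4% of those tested) were called at an adjusted p under 0.05. Of these, 1312 were higher at Day 7 (10.6%) and 1081 lower (8.76%). The changes were mostly small: the median log2 fold change was 0.475 among genes called higher and -0.331 among those called lower, and -0.0077 over all genes tested. At least 2-fold changes were called for 209 higher genes (1.69%) and 18 lower genes (0.146%). Most were of low level: 82 of the higher and 11 of the lower genes had a mean below 1 CPM. From 1 to 10 CPM there were 92 higher and 7 lower. No gene with a mean of 10 CPM or more was called 2-fold lower, while 24 genes from 10 to 100 CPM and 11 above 100 CPM were called 2-fold higher. The libraries of the days did not overlap for 5108 genes (41.4%), among them 2343 of the 2393 called. With scaling by library size alone, 39.4% of calls were higher, against 54.8% with TMM, and the median of all genes moved to -0.0573. Genes called lower numbered 674 without Day 7 replicate 2 and 589 without Day 7 replicate 3, and all calls fell to 1502 without Day 7 replicate 3.

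**Figure D1:**
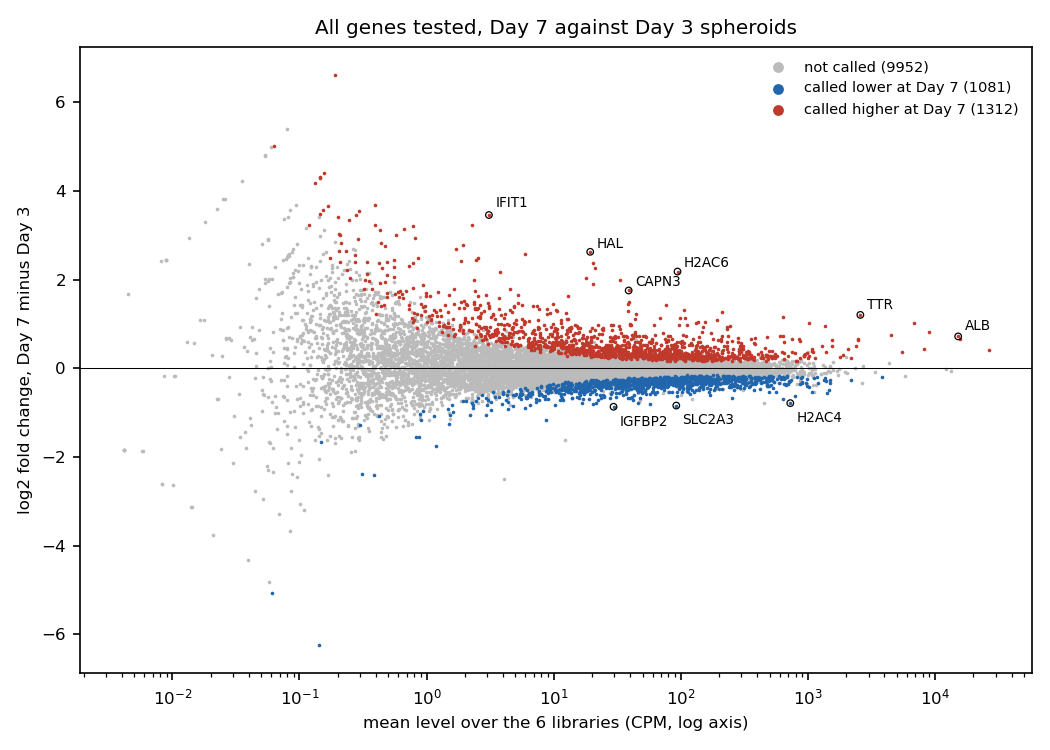
Log2 fold change of Day 7 minus Day 3 (vertical) against mean CPM over the 6 libraries (horizontal, log axis), 1 point for each of 12345 genes tested, with genes called higher in red and lower in blue. Above 10 CPM the rises reach further from 0 than the falls, and circled genes are named.

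Genes were grouped in lists by role. Most tested members of the plasma protein, coagulation, complement and apolipoprotein lists were called higher and none was called lower. Lists of ribosome production, glycolysis, proteasome subunits and DNA replication held called members only among the falls. In bulk RNA, fewer cells of a type and less RNA per cell cannot be told apart.

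**Figure D2:**
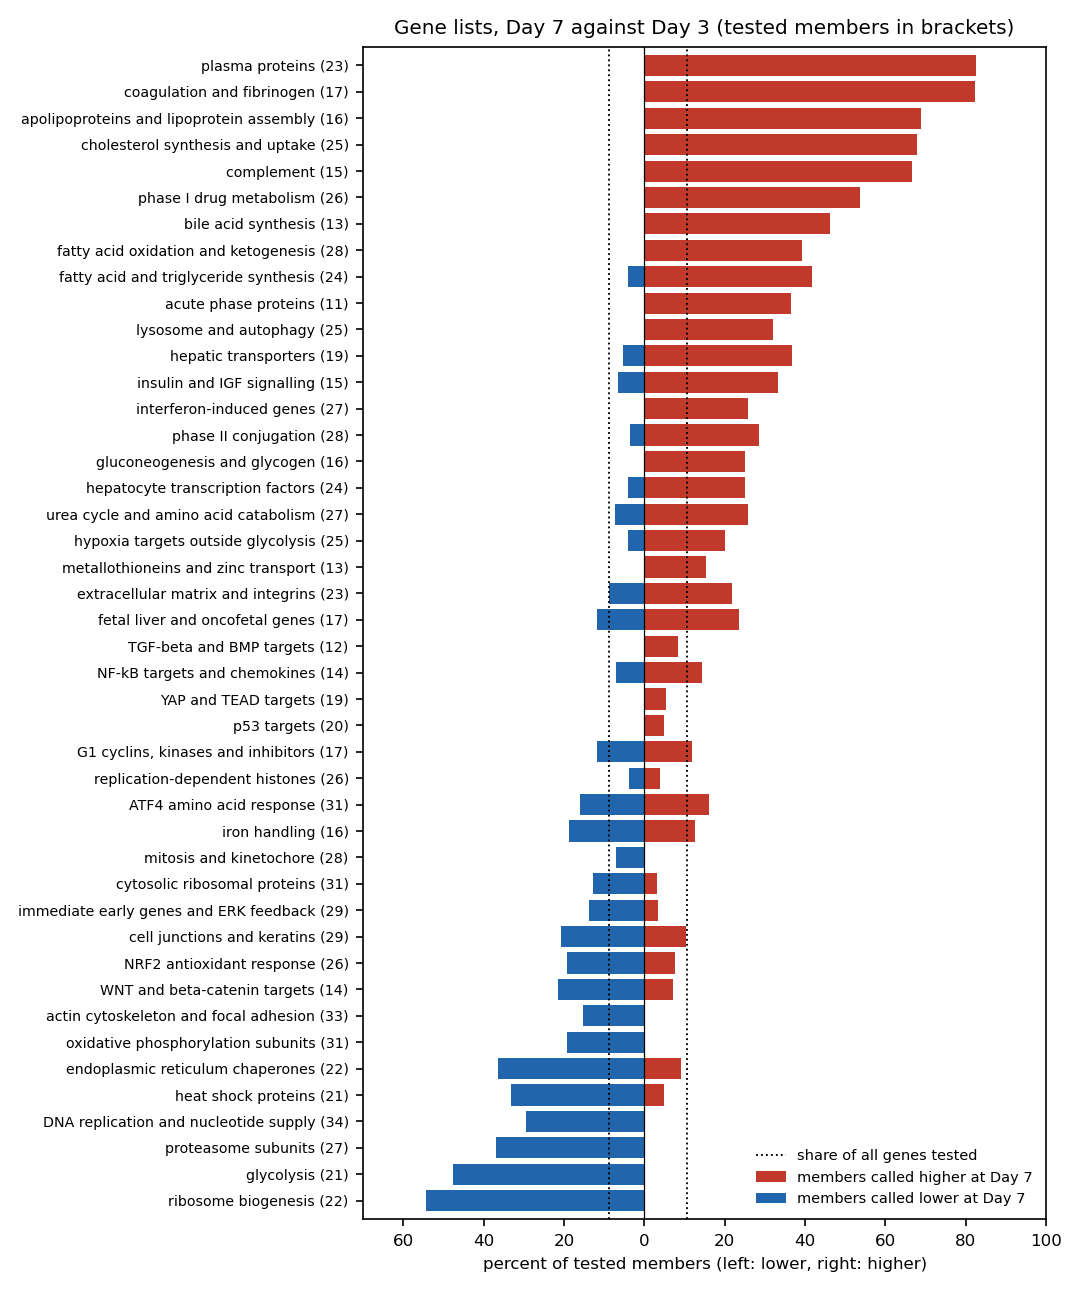
Share of each list's tested members (number in brackets) called higher (right) or lower (left) at Day 7, in percent. Dotted lines mark the share of all genes tested, 10.6% higher and 8.76% lower. Plasma proteins and coagulation genes lie at the top with over 80% of members higher, and ribosome biogenesis at the bottom with 54.5% lower.

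Of 23 tested plasma proteins, 19 were higher and 0 lower, with a list median of 0.73. Albumin (ALB), the main carrier protein of plasma, was at 10900, 11600 and 12000 CPM at Day 3 and 17100, 20500 and 19300 CPM at Day 7. Every Day 7 library lay above every Day 3 library, a rise of 0.72 ± 0.14 (adjusted p = 0.00158). Transthyretin (TTR), which carries thyroid hormone and retinol-binding protein, was at 1540, 1550 and 1600 CPM and then 3540, 3580 and 3710 CPM. Its libraries were tight within each day and the rise was 1.21 ± 0.097 (adjusted p = 3.97e-09). ITIH1, a heavy chain of inter-alpha-trypsin inhibitor at chr3:52777592-52792068 (GENCODE 29, GRCh38), was at 14.0, 14.2 and 12.3 CPM and then 43.8, 52.1 and 64.4 CPM. It had the largest rise of the tested plasma proteins with a mean of 1 CPM or more, 1.98 ± 0.16 (adjusted p = 1.45e-09), and its Day 7 libraries were spread more widely than its Day 3 libraries. Hemopexin (HPX), which binds free heme, rose by 1.42 ± 0.20, and fetuin-A (AHSG) by 1.03 ± 0.11.

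Clotting genes moved with them: 14 of 17 tested members were higher and 0 lower, median 0.64. The alpha chain of fibrinogen (FGA) was at 672, 679 and 651 CPM at Day 3 and 1190, 1400 and 1510 CPM at Day 7. All Day 7 libraries were above all Day 3 libraries, and the rise was 1.03 ± 0.082 (adjusted p = 1.53e-10). The other chains rose less, FGB by 0.89 ± 0.12 and FGG by 0.65 ± 0.067. The clotting factor subunit F13B had the largest rise of the list, 1.63 ± 0.25, from 1.22 ± 0.393 to 3.85 ± 0.484 CPM (SD, n = 3). Inhibitors of clotting rose as well, antithrombin (SERPINC1) by 0.73 ± 0.11 and heparin cofactor II (SERPIND1) by 0.64 ± 0.06.

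Of 15 tested complement genes 10 were higher and 0 lower, median 0.48. C5, the start of the lytic pathway, rose by 0.73 ± 0.062 and C2, an early protease of the cascade, by 0.70 ± 0.059. C8A had the largest rise, 0.93 ± 0.25 (adjusted p = 0.00731), with libraries at 2.01, 2.01 and 2.48 and then 2.50, 5.03 and 4.82 CPM. Its call was lost without Day 7 replicate 2 (adjusted p = 0.0553) or replicate 3 (adjusted p = 0.0542). Acute phase genes, which inflammation raises in liver, did not share 1 direction: 4 of 11 were higher and 0 lower, with a list median of 0.00. Fibrinogen-like protein FGL1 rose by 0.60 ± 0.08 and haptoglobin (HP, whose reads may be shared with HPR) by 0.60 ± 0.094. The adjusted p of SERPINA3 was 0.999 and that of ORM1 0.821.

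Of 16 tested genes of apolipoproteins and lipoprotein assembly, 11 were higher and 0 lower, median 0.45. APOA4, a protein of chylomicrons and high density lipoprotein, was at 113, 122 and 134 CPM and then 240, 262 and 281 CPM. The days did not overlap and the rise was 1.08 ± 0.15 (adjusted p = 7.42e-05). APOC3, an inhibitor of triglyceride clearance, rose by 0.72 ± 0.095, and the carrier APOM by 0.74 ± 0.099. The structural protein of very low density lipoprotein, APOB, was at 13600, 14300 and 13300 CPM and then 12700, 13600 and 13300 CPM. Its days overlapped, and its log2 fold change was -0.05 ± 0.11 (adjusted p = 0.776).

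Fetal markers were mixed: of 17 tested, 4 were higher and 2 lower, median -0.03, with 0 lower without Day 7 replicate 2 or 3 and 1 without any other of the 6 libraries. Alpha-fetoprotein (AFP), the main plasma protein of fetal liver, was at 12300, 12000 and 12300 CPM and then 18100, 19600 and 20000 CPM. It rose by 0.66 ± 0.15 (adjusted p = 0.00453), with no overlap of the days. Glypican-3 (GPC3), a surface proteoglycan of hepatoma cells, rose by 0.82 ± 0.076 and the imprinted fetal gene DLK1 by 0.61 ± 0.12. HMGA2, a fetal chromatin protein, fell by 0.20 on the log2 scale (SE 0.061), a call lost without Day 3 replicate 2, Day 7 replicate 2 or Day 7 replicate 3 (adjusted p up to 0.0892).

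Of 24 tested hepatocyte transcription factors, 6 were higher and 1 lower, median 0.05, and 3 were higher without Day 7 replicate 3. HNF4A, a central regulator of hepatocyte genes, was at 18.2, 18.5 and 17.6 CPM and then 18, 17.5 and 18.1 CPM. The days overlapped and its log2 fold change was -0.02 ± 0.11 (adjusted p = 0.937). The drug-sensing receptor CAR (NR1I3) was at 1.04, 1.45 and 1.35 CPM and then 2.37, 3.28 and 4.78 CPM. It had the largest rise of the list, 1.46 ± 0.28 (adjusted p = 0.000347), with no overlap. The fasting and stress factor CEBPB rose by 0.27 ± 0.068 and ONECUT2, a liver developmental factor, by 0.58 ± 0.15. FOXA1, FOXA2, FOXA3 and CEBPA, which act with HNF4A, were not called.

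Called genes of the lipid lists were nearly all higher, most often in cholesterol synthesis. Of 25 tested genes of cholesterol synthesis and uptake, 17 were higher and 0 lower, median 0.36. MVD, an enzyme of the mevalonate pathway, was at 90.5, 77.2 and 80.1 CPM and then 111, 153 and 148 CPM. The days did not overlap, Day 7 replicate 1 was the lowest of its day, and the rise was 0.73 ± 0.12 (adjusted p = 0.000139). The sterol oxidase MSMO1 rose by 0.67 ± 0.082, DHCR7, which makes cholesterol in its last steps, by 0.64 ± 0.077, and HMGCS1 by 0.58 ± 0.098. The count of called members was 9 without Day 7 replicate 3 and 11 without Day 7 replicate 2 or Day 3 replicate 2. Of 24 tested genes of fatty acid and triglyceride synthesis, 10 were higher and 1 lower, median 0.29, and 5 were higher without Day 3 replicate 3 or Day 7 replicate 2 and 6 without Day 3 replicate 1. The desaturase SCD rose by 0.96 ± 0.17, with libraries at 873, 878 and 1040 and then 1440, 1770 and 2220 CPM. The lipid droplet protein CIDEC rose by 0.98 ± 0.087.

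Of 28 tested genes of fatty acid oxidation and ketogenesis, 11 were higher and 0 lower, median 0.17. FABP1, the liver fatty acid carrier, was at 369, 408 and 408 CPM and then 773, 917 and 942 CPM. It rose by 1.15 ± 0.13 (adjusted p = 4.23e-06) with no overlap. With scaling by library size alone the list held 8 higher and 3 lower members. Without Day 7 replicate 3 it held 6 higher members, and 7 without Day 3 replicate 2.

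Of 16 tested genes of gluconeogenesis and glycogen, 4 were higher and 0 lower, median 0.21, and all 4 calls held when any of the 6 libraries was left out. G6PC, the glucose-6-phosphatase that releases free glucose (chr17:42900797-42913369), was at 6.29, 5.88 and 7.65 CPM and then 30.6, 35.2 and 36.3 CPM. It was 5.16-fold higher at Day 7, 2.37 ± 0.22 (adjusted p = 5.97e-07), and the days did not overlap. PCK1, the cytosolic enzyme that feeds gluconeogenesis from oxaloacetate, rose by 1.06 ± 0.23, and PPP1R3C, which targets a phosphatase to glycogen, by 0.96 ± 0.13. The glucose transporter of hepatocytes, SLC2A2, rose by 0.60 ± 0.15.

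Glycolysis went the other way, with 10 of 21 tested members lower and 0 higher, median -0.24. PGK1, a kinase of the pathway's payoff steps, was at 102, 91.4 and 92.0 CPM and then 63.4, 69.4 and 63.7 CPM. It fell by 0.54 on the log2 scale (SE 0.087, adjusted p = 3.27e-05), and the days did not overlap. PGAM1 fell by 0.50, ENO1 by 0.43, and LDHA, which makes lactate, by 0.41 on the log2 scale. SLC2A3, a high-affinity glucose transporter, was at 117, 118 and 119 CPM and then 77.2, 65.6 and 55.6 CPM. Its log2 fold change was -0.84 ± 0.22 (adjusted p = 0.0137), and -0.73 (adjusted p = 0.0695) without Day 7 replicate 3. Reads of SLC2A3 may be shared with the near-identical SLC2A14. HIF targets outside glycolysis, which low oxygen raises, held 5 higher and 1 lower of 25, median 0.13. NDRG1, a stress-induced member, rose by 1.1 ± 0.16, while the growth factor VEGFA was at 150, 140 and 154 CPM and then 156, 162 and 168 CPM. The VEGFA change of 0.13 ± 0.062 was not called (adjusted p = 0.15).

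Of 15 tested genes of insulin and IGF signalling, 5 were higher and 1 lower, median 0.39. IRS1, the adaptor of the insulin receptor, rose by 0.97 ± 0.094, the receptor INSR by 0.39 ± 0.093 and the fasting factor FOXO3 by 0.47 ± 0.069. IGFBP2, a secreted binder of insulin-like growth factors, was at 35.6, 35.9 and 43.0 CPM and then 24.3, 19.4 and 19.1 CPM. It had the largest fall of genes with at least 10 CPM and no overlap, -0.86 ± 0.14 (adjusted p = 6.61e-05).

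Of 27 tested genes of the urea cycle and amino acid catabolism, 7 were higher and 2 lower, median 0.11. HAL, histidine ammonia-lyase, the first enzyme of histidine breakdown (chr12:95972662-95996365), was at 4.77, 5.98 and 5.49 CPM and then 28.2, 37.3 and 34.5 CPM. It had the largest rise of genes with at least 10 CPM and no overlap, 2.63 ± 0.19 or 6.19-fold (adjusted p = 3.61e-08). The glyoxylate enzyme AGXT rose by 0.97 ± 0.10 and tyrosine aminotransferase (TAT) by 0.74 ± 0.099. CPS1, the entry enzyme of the urea cycle, was at 16.7, 14.0 and 15.1 CPM and then 11.7, 11.5 and 10.7 CPM. It fell by 0.43 on the log2 scale (SE 0.14, adjusted p = 0.0298), although the call was lost in 5 of 6 fits that left out 1 library, all but the fit without Day 3 replicate 2 (adjusted p up to 0.136).

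Of 26 tested phase I drug enzymes, 14 were higher and 0 lower, median 0.40, and 9 were higher without Day 3 replicate 1, Day 3 replicate 2 or Day 7 replicate 3. In bile acid synthesis 6 of 13 were higher and 0 lower, median 0.28. The alcohol dehydrogenase ADH4 rose by 1.46 ± 0.15, from 4.85, 5.98 and 5.03 to 12.7, 14.2 and 16.6 CPM. CYP3A5 rose by 0.91 ± 0.14 and the fetal form CYP3A7 by 0.99 ± 0.15. CYP3A4, the main drug-oxidising enzyme of adult liver, was at 1.84, 1.66 and 1.42 CPM and then 3.45, 2.58 and 4.78 CPM. Its log2 fold change of 1.13 ± 0.38 (adjusted p = 0.034) lost its call in 5 of 6 fits that left out 1 library, all but the fit without Day 7 replicate 2 (adjusted p up to 0.204). Reads may be shared among these near-identical CYP3A genes. CYP7A1, which starts the classic route from cholesterol to bile acids, was at 0.174, 0.173 and 0.106 CPM and then 1.1, 0.727 and 0.637 CPM. It rose by 2.39 ± 0.53 (adjusted p = 0.00123) on 15 counts at Day 3 and 94 at Day 7. AKR1D1, a later enzyme of the route, rose by 1.13 ± 0.095.

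Of 28 tested phase II enzymes, which attach polar groups to drugs and hormones, 8 were higher and 1 lower, median 0.20. The sulfotransferase SULT1C2 (chr2:108288639-108309915) was at 6.81, 6.81 and 7.33 CPM and then 29.1, 29.4 and 27.4 CPM. It was 4.1-fold higher, 2.03 ± 0.13 (adjusted p = 2.44e-13), and its libraries were tight on both days. UGT2B11 rose by 2.18 ± 0.31, although UGT2B genes may share reads, and the steroid sulfotransferase SULT2A1 by 1.24 ± 0.16. Of 19 tested hepatic transporters, 7 were higher and 1 lower, median 0.12, and 4 were higher without Day 7 replicate 3. The anion transporter SLC22A9 rose most, by 1.29 ± 0.11, from 22.5 ± 2.76 to 54.8 ± 5.67 CPM (SD, n = 3).

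Of 25 tested lysosomal and autophagy genes, 8 were higher and 0 lower, median 0.16. In a fit of the compared days alone 13 were higher and 2 lower, against 1816 higher and 1790 lower of all 12334 genes tested. The acid lipase LIPA rose by 0.74 ± 0.12, the hexosaminidase subunit HEXA by 0.42 ± 0.076 and the membrane protein LAMP2 by 0.40 ± 0.062.

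Interferon-induced genes held 7 higher and 0 lower of 27, median 0.36, and 4 higher without Day 3 replicate 1. Of the 7 calls, 3 held in every fit that left out 1 of the 6 libraries. IFI6 was at 1.91, 2.28 and 3.40 CPM and then 8.32, 7.11 and 8.42 CPM, a rise of 1.66 ± 0.30 (adjusted p = 0.000137) with no overlap. IFIT1 was at 0.547, 0.415 and 0.567 CPM and then 14.4, 0.915 and 1.74 CPM. Day 7 replicate 1 stood far above the other Day 7 libraries. The change of 3.46 ± 0.86 (adjusted p = 0.0105) was 1.38 (adjusted p = 0.0763) without that library. OAS1, which makes the activator of an RNA-degrading enzyme, was at 4.08, 3.70 and 4.71 CPM and then 11.8, 7.94 and 6.32 CPM. It was again highest in Day 7 replicate 1, and its rise of 1.06 ± 0.21 (adjusted p = 0.000474) was called in every fit that left out 1 of the 6 libraries. The transcription factor STAT2, which carries the interferon signal, was not called, with a change of 0.02.

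**Figure D3:**
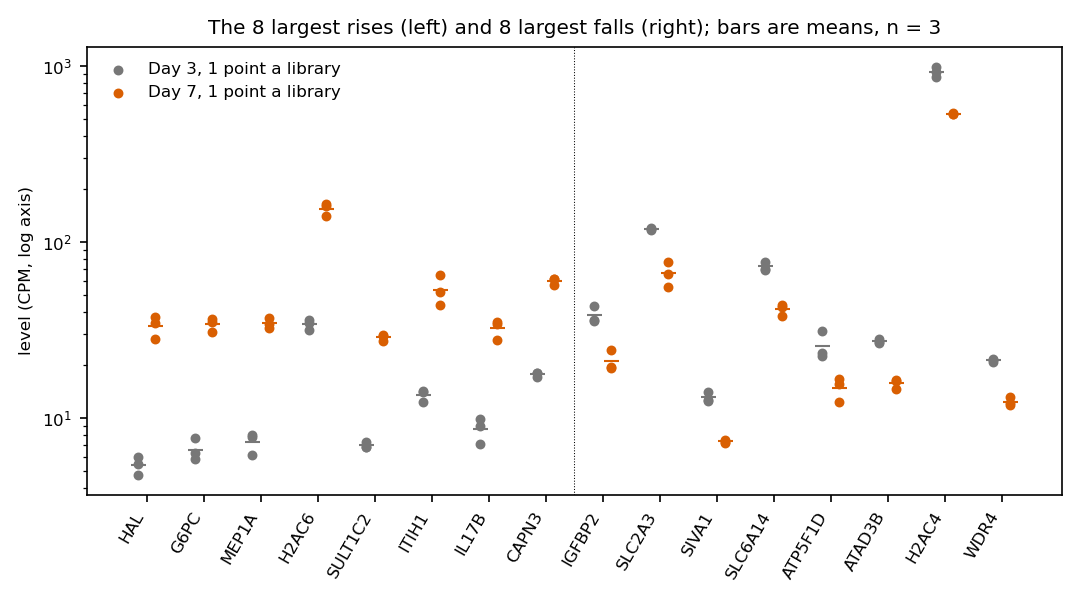
CPM (log axis) of the 8 strongest rises and 8 strongest falls, taken among called genes that averaged 10 CPM or more and whose days did not overlap, 1 point per library and a bar for the mean of 3. Day 3 and Day 7 points are apart for each gene, and the gaps of the rises are wider than those of the falls.

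The remaining large rises were of genes outside these programs. MEP1A, a secreted and membrane-bound metalloprotease, was at 6.14, 8.03 and 7.76 CPM and then 34.3, 32.6 and 37.1 CPM, a rise of 2.26 ± 0.11 (adjusted p = 2.35e-15). CAPN3, a calpain protease best known from muscle, was at 18.1, 17 and 18.1 CPM and then 61.4, 61.7 and 57.0 CPM, a rise of 1.76 ± 0.13 (adjusted p = 1.8e-11). IL17B, a cytokine, was at 7.16, 8.99 and 9.89 CPM and then 27.7, 34.1 and 34.9 CPM, a rise of 1.90 ± 0.16 (adjusted p = 1.55e-10). All 3 genes had their days well apart, by more than 2-fold between the nearest libraries. H2AC6, a histone H2A gene, was at 31.5, 34.5 and 36.0 CPM and then 140, 160 and 163 CPM. It rose by 2.18 ± 0.11 (adjusted p = 4.32e-12), apart from the other replication-dependent histones described below.

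Of 22 tested ribosome biogenesis genes, 12 were lower and 0 higher, median -0.35, and all 22 changes were negative. NOP56, a core protein of box C/D small nucleolar particles, was at 310, 305 and 312 CPM and then 197, 189 and 200 CPM. It fell by 0.66 on the log2 scale (SE 0.072, adjusted p = 4.83e-08), with the days far apart relative to their spread. Nucleolin (NCL) fell by 0.58 and the rRNA methyltransferase fibrillarin (FBL) by 0.54 on the log2 scale. Of the ribosomal proteins themselves, 4 of 31 were lower and 1 higher, median -0.05, with 2 lower without Day 7 replicate 3 and 7 with scaling by library size alone. WDR4, part of a tRNA methyltransferase, was at 21.4, 20.9 and 21.5 CPM and then 13.2, 11.8 and 12.2 CPM, a fall of 0.78 on the log2 scale (SE 0.12, adjusted p = 2.98e-05).

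Protein quality control genes were lower in part. Of 22 tested chaperones of the endoplasmic reticulum and their regulators, 8 were lower and 2 higher, median -0.23, with 1 higher without Day 3 replicate 1, Day 3 replicate 3 or Day 7 replicate 1. The chaperone HSPA5 (BiP) was at 280, 292 and 273 CPM and then 218, 203 and 207 CPM, a fall of 0.43 on the log2 scale (SE 0.072, adjusted p = 5e-05). Its co-chaperone SDF2L1 fell by 0.64, the calcium-binding HSP90B1 by 0.40 and calreticulin (CALR) by 0.37 on the log2 scale. Proteasome subunits held 10 lower and 0 higher of 27, median -0.20. That count was 3 without Day 7 replicate 3 and 16 with scaling by library size alone. Heat shock proteins held 7 lower and 1 higher of 21, median -0.15, with 2 lower without Day 7 replicate 3, 3 without Day 7 replicate 2 and 4 without Day 3 replicate 1. The mitochondrial chaperone HSPA9 fell by 0.47 and the small heat shock protein HSPB1 rose by 0.34 ± 0.088.

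Mitochondrial and surface genes were among the largest single falls. ATP5F1D, a subunit of ATP synthase, was at 23.5, 31.3 and 22.5 CPM and then 12.3, 15.5 and 16.6 CPM, a fall of 0.80 on the log2 scale (SE 0.16, adjusted p = 0.000678). ATAD3B, a mitochondrial inner membrane ATPase whose reads may be shared with its copies, was at 27.1, 26.6 and 28.1 CPM and then 16.5, 16.3 and 14.6 CPM, a fall of 0.79 on the log2 scale (SE 0.11, adjusted p = 2.03e-06). Of 31 tested oxidative phosphorylation subunits, which did not include ATP5F1D, 6 were lower and 0 higher, median -0.14. That count was 3 without Day 3 replicate 2 or any 1 of the Day 7 libraries, and 13 with scaling by library size alone. SLC6A14, an amino acid transporter, was at 77.1, 70.5 and 69.6 CPM and then 37.9, 43.8 and 42.6 CPM, a fall of 0.81 on the log2 scale (SE 0.12, adjusted p = 3.23e-05). SIVA1, a regulator of apoptosis, was at 12.5, 14.0 and 12.7 CPM and then 7.24, 7.54 and 7.35 CPM, a fall of 0.82 on the log2 scale (SE 0.15, adjusted p = 0.000145). In all 4 genes the Day 3 libraries lay above every Day 7 library.

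Of 34 tested replication and nucleotide supply genes, 10 were lower and 0 higher, median -0.35. The Day 7 libraries lay all below those of Day 3 for 27 of the 34. Without Day 7 replicate 3, 6 were called lower. Over all genes tested, 41.4% had no overlap between the days, counted in both directions together. Thymidylate synthase (TYMS) was at 1700, 1690 and 1720 CPM and then 1290, 1190 and 1200 CPM, a fall of 0.48 on the log2 scale (SE 0.11, adjusted p = 0.00296). CDC45, part of the replicative helicase, fell by 0.71 on the log2 scale (SE 0.18). Of 28 tested mitosis and kinetochore genes, 2 were lower and 0 higher, median -0.26, although all 28 changes were negative and 18 had no overlap. The spindle checkpoint gene MAD2L1 fell by 0.57 on the log2 scale (SE 0.11). MKI67, the gene of the proliferation antigen Ki-67, was at 155, 165 and 157 CPM and then 123, 118 and 112 CPM. Its days did not overlap, and its log2 fold change of -0.43 ± 0.16 was not called (adjusted p = 0.063). Of 26 histone genes tested, 18 were lower without overlap, but apart from H2AC6 only H2AC4 was called. H2AC4 was at 923, 857 and 977 CPM and then 536, 534 and 532 CPM, and its change of -0.78 ± 0.25 (adjusted p = 0.0386) lost its call in all 6 fits that left out 1 library. Reads of near-identical histone genes may be shared.

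The fit borrows the spread of all 7 groups, and for these genes that spread was not even. The median SD of log2 level over the mitosis genes was 0.0679 at Day 3 and 0.0959 at Day 7, but 0.282 in the monolayer, 0.417 at Day 14 and 0.291 at Day 21. Over all genes tested it ran from 0.105 to 0.166 across the groups. In a fit of the compared days alone, 22 of the mitosis genes, 24 of the replication genes and 16 of the histones were lower. That fit called more genes in all, with 1790 lower and 1816 higher of 12334 tested. In that fit MKI67 had a change of -0.42 and an adjusted p of 3.71e-08. A fit of all 21 libraries without the filter on low counts also called more of these genes. It held 11 mitosis genes, 18 replication genes and 15 histones lower, against 1112 lower and 1386 higher of all 16280 genes tested. MKI67 had a change of -0.43 and an adjusted p of 4.49e-06 there. The part of the uneven spread in these calls was not tested. The cell cycle inhibitor CDKN1A was at 1.12, 1.59 and 1.70 CPM and then 2.42, 2.37 and 2.11 CPM, a change of 0.65 ± 0.34 that was not called (adjusted p = 0.182).

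Of 33 tested actin and focal adhesion genes, 5 were lower and 0 higher, median -0.08, with 3 lower without Day 7 replicate 3 and 9 with scaling by library size alone. ACTB, cytoplasmic beta-actin, was at 315, 299 and 275 CPM and then 237, 232 and 202 CPM, a fall of 0.40 on the log2 scale (SE 0.076, adjusted p = 0.000217). Filamin A (FLNA), a cross-linker of actin, fell by 0.58 on the log2 scale (SE 0.14). Junction and keratin genes held 3 higher and 6 lower of 29, median 0.00. The lower count was 1 without Day 7 replicate 3, 2 without Day 7 replicate 2 and 3 without replicate 1 of either day. Claudin-6 (CLDN6), of fetal tight junctions, rose by 0.57 ± 0.090, the gap junction gene GJB1 rose by 0.36 ± 0.064, and keratin 18 (KRT18) fell by 0.48 on the log2 scale. Matrix and integrin genes held 5 higher and 2 lower of 23, median -0.02, with 3 higher without Day 3 replicate 3 or Day 7 replicate 2 and with scaling by library size alone. The collagen receptor ITGA1 rose by 0.55 ± 0.077 and fibronectin (FN1) by 0.51 ± 0.11. Targets of YAP, which responds to mechanical tension, held 1 higher and 0 lower of 19, and p53 targets 1 higher and 0 lower of 20.

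Of 10 endothelial markers, 5 were at 0 in all 6 libraries, KDR and CLDN5 among them, and the 10 together summed to 0.671 to 0.957 CPM at Day 3 and 1.32 to 2.15 CPM at Day 7. Of 10 fibroblast and stellate markers, 5 were at 0, COL1A2, COL3A1 and DCN among them, with sums of 0.744 to 1.35 and 1.59 to 2.13 CPM. Of 10 macrophage and leukocyte markers, 4 were at 0, PTPRC, CD163, MARCO and CD3E, with sums of 60.1 to 66.5 and 82.8 to 91.2 CPM, most of it CD68. Within that list AIF1 rose by 1.40 ± 0.26 and CD14 by 1.20 ± 0.23. Of 10 cholangiocyte markers 2 were at 0, CFTR and AQP1, with sums of 686 to 713 and 595 to 650 CPM, most of it ANXA4. The part of these shifts in the results was not tested.

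**Figure D4:**
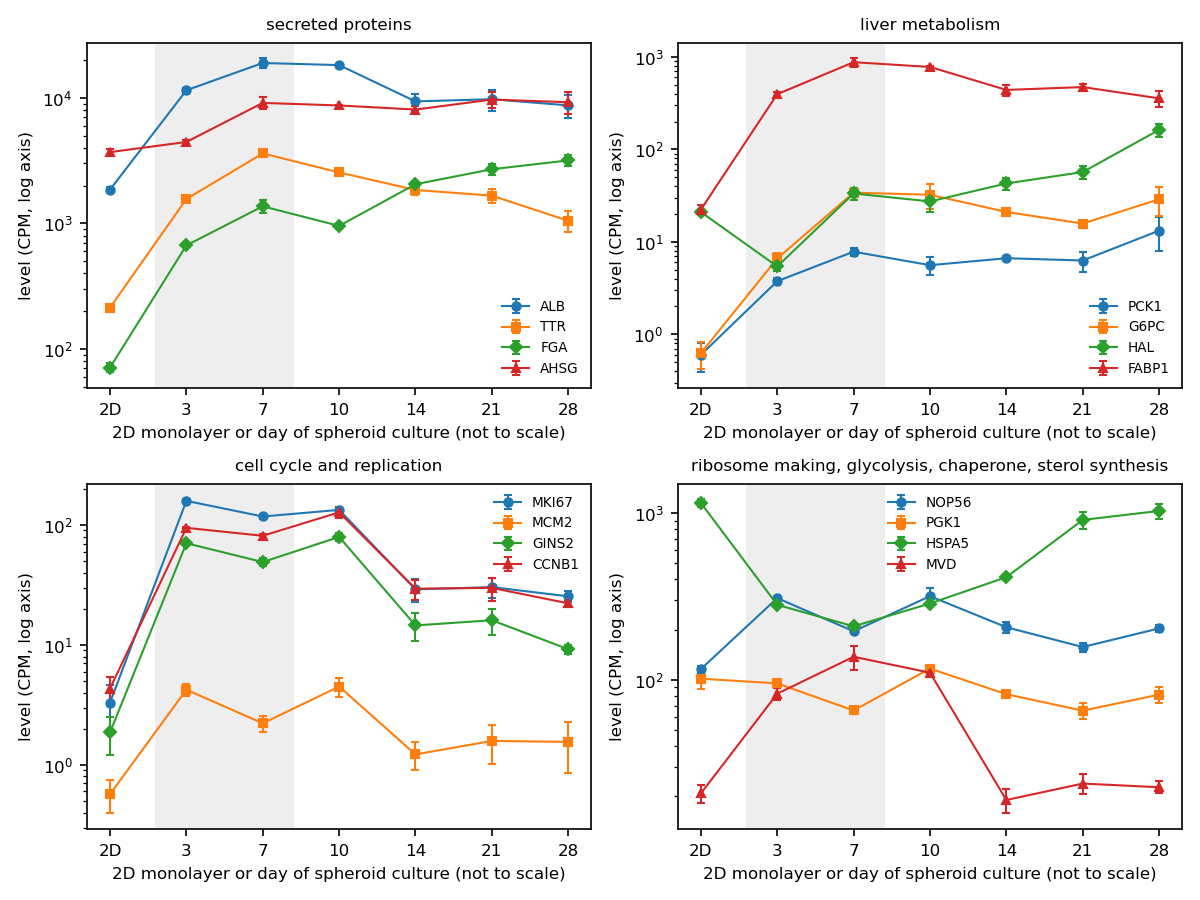
Mean CPM (log axis) of 16 genes in the 2D monolayer and at each day of spheroid culture, with error bars of 1 SD over 3 libraries; the days compared are shaded. ALB, TTR, FGA, PCK1 and G6PC rise across the shaded days, whereas NOP56, PGK1 and HSPA5 fall.

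The change was then set against the next interval of the same length that shares no library with it, Day 10 to Day 14. That later interval had 5967 calls (48.3%), 2968 higher (24.0%) and 2999 lower (24.3%), and a median absolute log2 change of 0.363 against 0.199 between Day 3 and Day 7. The 1511 genes called in both made up 63.1% of the early and 25.3% of the late calls. Of these, 1026 moved the same way and 485 the opposite way, 277 of them higher and then lower. Across the 12345 genes the 2 changes had a Pearson r of 0.082, given as a description. The difference between the 2 changes was called for 4484 genes (36.3%).

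The lists show where the intervals parted. Of the 25 cholesterol genes, 17 were higher between Day 3 and Day 7 and 23 were lower between Day 10 and Day 14, and the difference was called for 24. MVD rose by 0.73 ± 0.12 early and fell by 2.53 on the log2 scale late. Ribosome biogenesis genes were lower early (12 of 22) and higher late (13 of 22), with the difference called for 16. Of the 28 mitosis genes, 2 were lower early and 28 late, with a late median of -2.19, and the difference was called for 28. Complement genes were higher in both, 10 and 9 of 15, and FGA rose by 1.03 ± 0.082 and by 1.1 ± 0.082. The ATF4 amino acid response, a stress program, held 5 higher and 5 lower of 31 early (1 lower without Day 7 replicate 3) and 30 higher late.

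**Figure D5:**
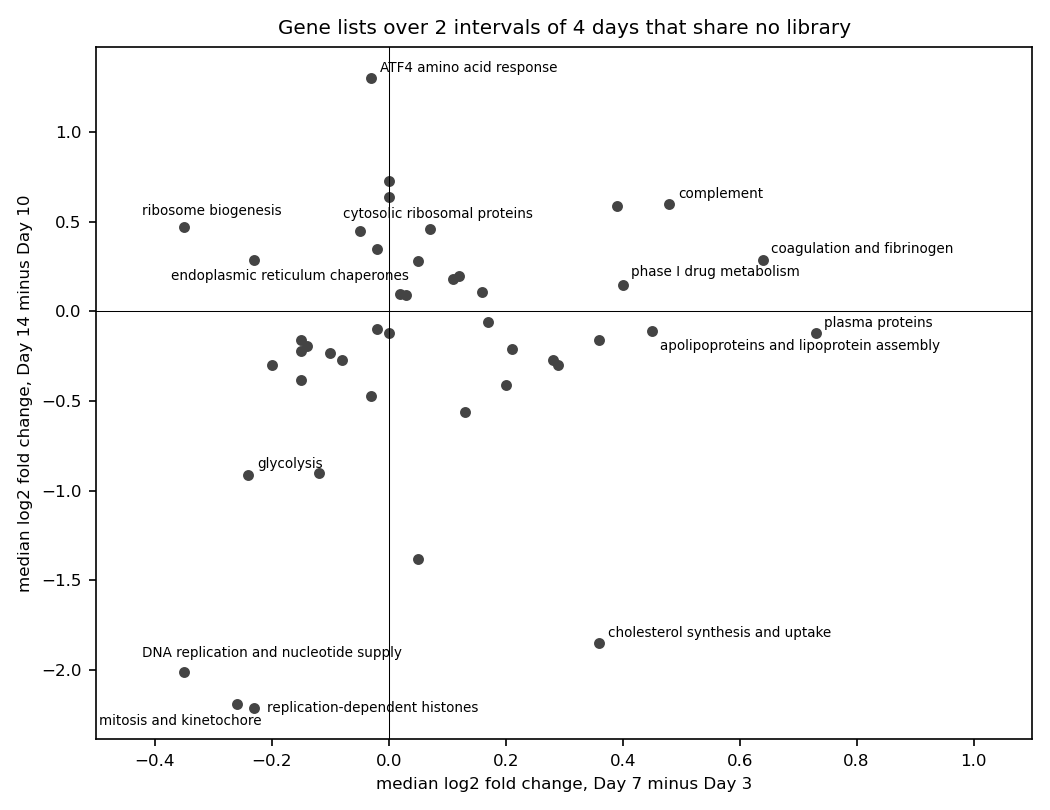
Median log2 fold change of each gene list between Day 3 and Day 7 (horizontal) and between Day 10 and Day 14 (vertical), 1 point per list. Cholesterol synthesis lies to the right and far below 0 (0.36 and -1.85), ribosome biogenesis to the left and above 0 (-0.35 and 0.47), and replication and mitosis below 0 on both axes.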

How the data were processed

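Gene counts of TempO-Seq libraries were deposited by the authors as 1 table of raw, whole-number counts per gene symbol. Tools listed without a role in the submitters' processing notes were DESeq2 1.38.0, STAR 2.7.10b, fastp 0.23.2 and bcl2fastq 2.20.422, with the build GRCh38.p13. The sources used here do not give how detector oligos of 1 gene were combined. All 21 libraries entered 1 fit of 7 groups in edgeR 4.0.16 (R 4.3.3, limma 3.58.1), with filterByExpr at a minimum count of 10, TMM scaling, the robust quasi-likelihood test and Benjamini-Hochberg adjustment over 12345 genes. The 7338 genes removed held 0.0108% of the counts. The biological coefficient of variation was 9.616%, with 14 residual and a median of 18.03 prior degrees of freedom. SE is the absolute log2 fold change divided by the square root of F, and log2 levels used a prior count of 2. A gene was called at an adjusted p under 0.05.

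On simulated data for Day 7 against Day 3 with 12345 genes, the fit recovered 58 of 67 genes changed 1.5-fold (86.6%). It also recovered 67 of 67 changed 2-fold and 66 of 66 changed 4-fold, with 7 false calls (3.54% of calls). The simulation gave all genes and groups the same spread, and changed only these genes, all of at least 1 CPM. Spread in the real libraries was uneven, so these rates need not hold for them. Chi-square per degree of freedom between libraries of 1 day was 5.68 to 7.69 at Day 3 and 9.28 to 19.6 at Day 7, so no pair looked like a repeat deposit of 1 library. The table held 0 per-sample columns that were not used.

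The comparison and the gene lists were chosen with earlier results of these data known. The 49 lists held 1144 genes, of which 1142 were in the table, 2 of them under an older symbol, and 1004 were tested. Named genes were the 8 strongest rises and 8 strongest falls, taken among called genes that averaged 10 CPM or more and whose days did not overlap, 10 fixed genes, and in each list the called members with the largest rise and the largest fall at a mean of at least 1 CPM. Other genes named were chosen after their values were seen. A few genes that fall under these rules are not reported here. Gene positions are from GENCODE 29 on GRCh38, and promoters from RefSeq on GRCh38.p14.

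Alternatives were scaling by library size alone, RLE scaling, no filter on low counts, DESeq2 1.42.0, a fit of the compared days only, a replicate block, an adjusted p under 0.01 and leaving out each library in turn.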

Additional observations from a re-analysis of the deposited data

Results flagged for a closer look

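The 26 genes examined here were the 8 strongest rises, the 8 strongest falls and the 10 fixed genes. For 8 of them, the changes between Day 3 and Day 7 and between Day 10 and Day 14 were called in opposite directions. The difference between the changes was also called for these 8, by edgeR's quasi-likelihood test with Benjamini-Hochberg adjustment. Of all 12345 genes tested, 2393 were called between Day 3 and Day 7, and 485 were called in opposite directions in the intervals. The strongest rises and falls were picked by their change between Day 3 and Day 7, which is part of the difference tested. That choice favours large differences, so the count of 8 among the 26 does not describe other genes. Other list examples were not counted here, and some also had opposite calls and a called difference, among them MVD with a difference of 3.27 ± 0.18.

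The largest difference was that of the cytokine gene IL17B, 4.77 ± 0.23 on the log2 scale (adjusted p = 6.25e-17), from a rise of 1.90 and a later change of -2.87. ITIH1 differed by 3.01 ± 0.22 (adjusted p = 3.53e-11), with changes of 1.98 and -1.03. G6PC differed by 2.99 ± 0.30 (adjusted p = 2.94e-07), with changes of 2.37 and -0.62. CAPN3 differed by 2.68 ± 0.19 (adjusted p = 1.04e-12), with changes of 1.76 and -0.92.

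CYP3A4 differed by 2.27 ± 0.59 (adjusted p = 0.00263), with changes of 1.13 and -1.14. Its early call was lost in 5 of 6 fits that left out 1 library. The late change had an adjusted p of 0.0368, at low means of 1.11 CPM at Day 10 and 0.504 CPM at Day 14. Albumin (ALB) differed by 1.68 ± 0.20 (adjusted p = 3.63e-06), with changes of 0.72 and -0.96, and AFP by 1.28 ± 0.21 (adjusted p = 0.000106), with changes of 0.66 and -0.62. ATP5F1D went the other way, with changes of -0.80 and 0.46 and a difference of -1.26 ± 0.22 (adjusted p = 6.54e-05). Groups of 3 libraries were too small to test for single libraries that stand apart.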

How the results depend on the processing

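Of 2393 called genes, 1312 higher and 1081 lower, counts differed by over 1.5 times under some settings. A fit of the compared days alone called 3606 genes, 1790 of them lower, and 1334 were called at an adjusted p under 0.01, 821 higher, 513 lower and 139 of the 227 at 2-fold or more. Scaling by library size alone called 1637 lower. Leaving out 1 of the 6 libraries gave 1502 to 2103 calls, 907 to 1245 higher, 589 to 879 lower and 163 to 229 at 2-fold or more, with fewer libraries in the fit. DESeq2, RLE scaling and no filter gave counts over all genes within 1.5 times the reported ones. Counts within single lists could move further, as for mitosis, replication and histone genes without the filter. The difference of the intervals, 4484 genes, stayed within 1.5 times in all settings run. The cause of the other shifts was not tested.

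Replicate numbers were not taken as pairs: same-numbered libraries had correlations of 0.0682, 0.104 and 0.214 over 7132 genes, although each correlated best with its own number. With a replicate block, 2613 genes were called in the fit of all libraries and 3908, 1955 of them lower, in the fit of the compared days. MVD had an adjusted p of 0.133 with the block in that last fit, and IFIT1 0.169 in the fit of the compared days without it. Of the 87 genes picked by the naming rules, 57 kept call and direction in every setting run. Genes named after their values were seen are not in this count. HNF4A, not called, went from -0.02 to 0.01 without Day 7 replicate 2, the highest of its leave-one-out values, the lowest being -0.04. Depth limits genes below about 1 CPM, such as CYP7A1.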

Other observations

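Of 16 tested iron genes 2 were higher and 3 lower (1 without Day 3 replicate 1), median -0.12: TFR2, a sensor of iron-loaded transferrin, rose by 0.86 ± 0.092 and the iron exporter SLC40A1 by 0.69 ± 0.078, while ID2, a target of BMP signals, fell by 0.49 on the log2 scale. Of 14 tested WNT and beta-catenin targets 1 was higher and 3 lower, median -0.15. DKK4, a secreted WNT antagonist, rose by 0.99 ± 0.11, while NOTUM, which inactivates WNT proteins, fell by 0.54 and NKD1 by 0.43 on the log2 scale.

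The ATF4 list, with 5 higher and 5 lower of 31 and a median of -0.03, held 2 lower without Day 3 replicate 1, 3 without Day 7 replicate 2 and 1 without Day 7 replicate 3. The stress regulators DDIT3 and NUPR1 rose by 0.60 ± 0.11 and 0.75 ± 0.14, and asparagine synthetase (ASNS) by 0.42 ± 0.070, whereas the aminoacyl-tRNA synthetase WARS1 fell by 0.37 on the log2 scale. Of 26 NRF2 targets 2 were higher and 5 lower, median -0.10 (2 lower without Day 7 replicate 3, 3 without replicate 2 of either day, 9 with scaling by library size alone), with thioredoxin reductase (TXNRD1) lower by 0.42 on the log2 scale. Among genes of cell death, the BH3-only gene BMF rose by 0.77 ± 0.11.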
